A study of Mus musculus with 27 samples.

Results

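The 9 genes described here act in the tail bud and in the elongation of the body axis. They were T (Brachyury), Tbx6, Msgn1, Cdx1, Cdx2, Cdx4, Nkx1-2, Gdf11 and Nr6a1. They were chosen by name, with earlier results of these data known, and all 9 are among the 23279 genes of the expression table. RNA-seq of mouse tissue was analysed in 9 groups, 7 of them dissected from Slc:ICR embryos and 2 derived from embryonic stem (ES) cells. The embryonic groups were tail bud (TB), branchial arch (BA), cardiac tissue (Ca) and E10.5 forelimb and hindlimb buds (FLBs and HLBs), all labelled E10.5, and early FLBs and HLBs, labelled E10.0. The study describes these early FLBs as slightly younger and the early HLBs as slightly older than labelled, so limb type and stage cannot be told apart between them. ES–FLB and ES–HLB were Hand2::GFP-positive mesenchyme, sorted on day 9 from aggregates of 1 heterozygous reporter line, EB5 Hand2::GFP +/-. The line was maintained in LIF+2i, and all aggregates received BMP4, Matrigel, the BMP inhibitor LDN193189 and Wnt3. ES–FLB aggregates also received retinoic acid (RA), and ES–HLB aggregates an RA antagonist. Embryonic tissue was amputated from 3 embryos and was not sorted, and sorted cells came from many aggregates together. Each group had 3 libraries, except that 1 E10.5 HLB library was left out, which leaves n = 2 there and 26 libraries in all.

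The vertebrate body grows from its tail end, where a pool of progenitors gives rise to both spinal cord and paraxial mesoderm. T keeps this pool and the notochord, while the T-box factor Tbx6 and the bHLH factor Msgn1 drive its descendants into presomitic mesoderm. The caudal factors Cdx1, Cdx2 and Cdx4 act with Wnt signals to extend the axis and set posterior Hox genes, and Nkx1-2 marks the neuromesodermal progenitors. Gdf11, a secreted TGF-beta family ligand, helps to end trunk growth and to place the hindlimb, and Nr6a1, an orphan nuclear receptor also called Gcnf, is known for sustaining trunk growth before that switch.

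Depth inferred from the spacing of low values was 5543755 to 22142300 reads per library. The 6 early limb bud libraries stood apart, with 19642244 reads or more and with 93.1 to 93.6% of values at whole reads, against 98.9 to 99.2% elsewhere, so this difference and stage cannot be told apart. Libraries of a group correlated across genes with r of 0.988 to 0.997. The library left out, E10.5 HLB replicate 2, was at 0 for nearly all expressed genes of chromosomes 5 to 9, X and Y and for part of chromosome 4, which covers Tbx6, Cdx2, Cdx4 and Nkx1-2. Labelled tissues carried their own markers. Summed cardiomyocyte markers (7 genes) were at 20926 to 25129 CPM in Ca and at 96.2 or less in the other libraries, branchial arch markers (5 genes) at 446 to 457 in BA and 52.7 or less elsewhere, and limb bud markers (9 genes) at 1004 to 1801 in limb buds and at 151 to 178 in TB. BA held 1002 to 1053 CPM of the limb bud markers, so that list does not set limb bud apart from arch. TB was a mixed tissue, with somite markers (6 of 6 genes) at 591 to 610 CPM, neural tube markers (8 of 8) at 170 to 199.96, notochord markers (5 of 5) at 41.3 to 49.6 and endoderm markers (7 of 8) at 133 to 150.1.

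Values are counts per 1000000 (CPM), scaled between libraries by a trimmed mean of log ratios. A level made of 3 reads in a library, called the floor here, was 0.149 to 0.544 CPM and covers counting error only, since the reads carry no molecular identifiers. Differences are fitted log2 differences of (CPM + 0.5) with their standard errors from limma, and a difference is called at a Benjamini-Hochberg adjusted p below 0.05 over 14432 genes. A gene was counted as measurable in a comparison where its highest group mean lay above the highest floor of the groups compared, so that the shallower libraries could have shown it. The pseudocount of 0.5 shrinks differences of low genes. Nothing in the labels says that the libraries of a group came from separate litters or cultures, so p-values measure only the spread between these libraries.

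T, which stands at the head of the mesodermal programme, was high in TB and low everywhere else. The TB libraries held 119.6, 135 and 131 CPM, from 959 to 1162 reads each. Next came E10.5 FLBs with 1.70, 1.32 and 3.64 CPM (mean 2.22 ± 1.24, SD, n = 3) and ES–HLB with 0.636, 1.55 and 1.43 CPM. All TB libraries lay far above every other library, and only in E10.5 FLBs, ES–HLB and 1 early HLB library (1.04 CPM) did T reach 1 CPM. The mean of TB was 57.9 times that of E10.5 FLBs (log2 difference 5.66 ± 0.29, SE, adjusted p = 5.76e-17, limma). In Ca a single read was found among 3 libraries. In a bulk sample fewer cells of a type and less RNA per cell cannot be told apart, and this holds for each level below.

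Tbx6 and Msgn1, the pair that turns progenitors into presomitic mesoderm, followed the same order of TB first. Tbx6 was at 45.4, 53.8 and 42.7 CPM in TB and between 0 and 1.06 CPM in the other 23 libraries. Its mean in TB was 64.6 times that of E10.5 FLBs and 58.2 times that of BA, its next highest group. No group outside TB held more than 25 reads of Tbx6. Msgn1 was at 20.5, 29.3 and 24.1 CPM in TB. It was at 0 in all 17 libraries of the E10.5 limb buds, BA, Ca and the ES–LBs, so TB stood at least 48.4-fold higher than E10.5 FLBs and at least 71.1-fold higher than BA, against the mean floor of 3 reads per library. Early FLBs were the exception, with 0.206, 0.304 and 0.104 CPM of Msgn1, or 12 reads in all. Early HLBs held 1 read.

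**Figure D1:**
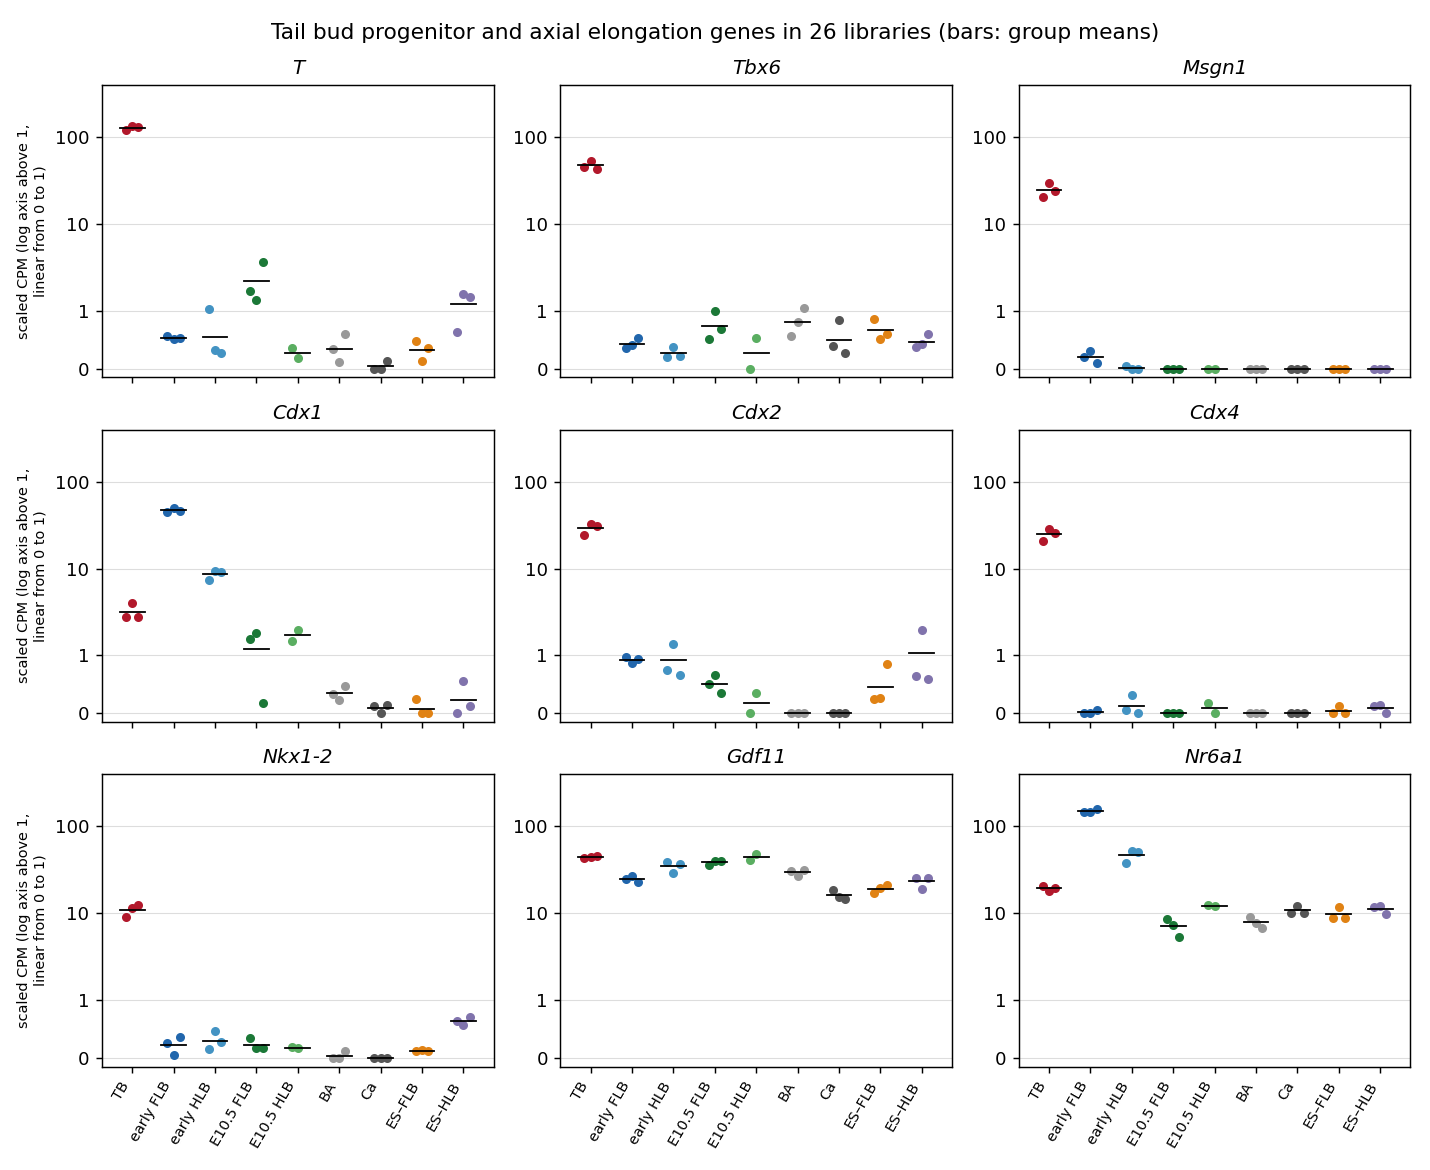
Scaled CPM of each of the 9 genes in 26 libraries, 1 point per library with horizontal bars at group means; the vertical axis is logarithmic above 1 CPM and linear from 0 to 1. T, Tbx6, Msgn1, Cdx2, Cdx4 and Nkx1-2 are highest in TB, Cdx1 and Nr6a1 are highest in early FLBs (46.8 and 151 CPM on average), and Gdf11 lies between 14.6 and 48.2 CPM in every library.

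The promoters of 4 genes with their highest level in TB are shown. Sequences are from RefSeq on GRCm38.p6 (mm10), run 5′ to 3′ on the strand of the gene, and end at the base before the gene as GENCODE annotates it, which for Msgn1 is upstream of its RefSeq start site. Capitals mark matches to the motifs searched. T lies at chr17:8434423-8442496 on the plus strand, Msgn1 at chr12:11208382-11208948 on the minus strand, Tbx6 at chr7:126781483-126785548 on the plus strand and Cdx4 at chrX:103321398-103330224 on the plus strand. The stretches shown are chr17:8434173-8434422 for T, chr12:11208973-11209198 for Msgn1, chr7:126781233-126781482 for Tbx6 and chrX:103321148-103321397 for Cdx4.
T: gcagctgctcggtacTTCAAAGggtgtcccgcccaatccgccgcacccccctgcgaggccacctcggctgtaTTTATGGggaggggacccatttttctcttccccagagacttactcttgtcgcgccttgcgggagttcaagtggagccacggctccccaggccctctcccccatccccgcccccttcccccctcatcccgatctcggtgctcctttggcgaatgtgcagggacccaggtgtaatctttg
Msgn1: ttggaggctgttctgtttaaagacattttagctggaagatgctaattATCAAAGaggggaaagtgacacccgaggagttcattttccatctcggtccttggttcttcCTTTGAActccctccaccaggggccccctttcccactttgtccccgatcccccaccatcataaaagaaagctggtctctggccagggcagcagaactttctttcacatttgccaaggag
Tbx6: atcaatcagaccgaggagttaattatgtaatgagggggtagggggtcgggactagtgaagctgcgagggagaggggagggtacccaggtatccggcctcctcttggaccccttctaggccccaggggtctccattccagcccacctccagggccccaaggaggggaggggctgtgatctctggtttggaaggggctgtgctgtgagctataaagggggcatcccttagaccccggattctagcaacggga
Cdx4: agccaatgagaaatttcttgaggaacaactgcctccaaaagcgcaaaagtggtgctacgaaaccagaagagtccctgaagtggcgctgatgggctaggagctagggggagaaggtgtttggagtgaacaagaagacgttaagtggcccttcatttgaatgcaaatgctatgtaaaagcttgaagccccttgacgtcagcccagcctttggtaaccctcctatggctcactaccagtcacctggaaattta

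Letters known from binding sites of Wnt effectors (TCF/LEF, CTTTGAT or CTTTGAA), T-box factors (TCACACC), Cdx factors (TTTATGG or TTTATTG), the Nr6a1 receptor (TCAAGGTCA) and Sox2 (CATTGTT) were searched on both strands of the 250 bases before each start site. The Msgn1 window held both TCF/LEF forms, CTTTGAT on the opposite strand with its first base at -203 from the start site and CTTTGAA at -143 on the strand of the gene. Both forms occurred together in 0.183% of all 32851 promoter windows, and at least 1 of them in 7.48%. The T window held CTTTGAA on the opposite strand at -235 and the Cdx letters TTTATGG at -178, which 2.43% of windows hold. No motif searched was found in the windows of Tbx6, Cdx2, Cdx4, Nkx1-2, Gdf11 and Nr6a1. TCACACC was found in 3.33% of windows, TTTATTG in 4.20%, TCAAGGTCA in 0.387% and CATTGTT in 3.29%. Of the 9 genes 8 had a window, and Cdx1 had none. The windows differed widely in base composition, from 81.2% GC for Gdf11 to 37.6% for 1 start site of Nr6a1, around a median of 52.4% over all windows.

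The Cdx genes, whose products share a homeodomain, divided into 2 patterns. On GRCm38, Cdx1 lies at chr18:61018862-61036199 and Cdx2 at chr5:147300900-147307249, both on the minus strand. Cdx2 was at 24.6, 32.4 and 31.1 CPM in TB, and its next highest group was ES–HLB with 0.636, 1.97 and 0.597 CPM. Cdx4 was at 21.1, 28.9 and 25.6 CPM in TB and at 0.315 CPM or less in all other libraries. Both were thus TB genes in these tissues, and Cdx2 was at 0 in every BA and Ca library. Cdx2 is also a gene of the hindgut, and the part of the endoderm markers of TB in its level was not tested. Cdx1 had another order. Early FLBs held 44.7, 50.1 and 45.7 CPM of Cdx1, early HLBs 7.45, 9.34 and 9.09 CPM and TB 2.74, 4.07 and 2.75 CPM. These groups did not overlap, and the mean of early FLBs was 14.7 times that of TB. After TB came E10.5 HLBs (1.45 and 1.94 CPM) and E10.5 FLBs (1.53, 1.82 and 0.173 CPM), which overlapped each other. Cdx1 fell to 5 reads or fewer in each ES–LB group.

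Levels of the Cdx genes can be set against each other only per length of exon. On that scale Cdx1 made up 98.5 ± 0.202% (SD, n = 3) of the summed Cdx level in early FLBs and 91.5 ± 3.66% in early HLBs. In TB, Cdx2 and Cdx4 made up 47.0 ± 1.41% and 46.4 ± 0.480%, and Cdx1 6.56 ± 0.953%. The sum itself was 27.7 ± 4.17 CPM per kb in TB and 27.2 ± 1.59 in early FLBs, a difference within the spread of TB, and 5.40 ± 0.749 in early HLBs.

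**Figure D2:**
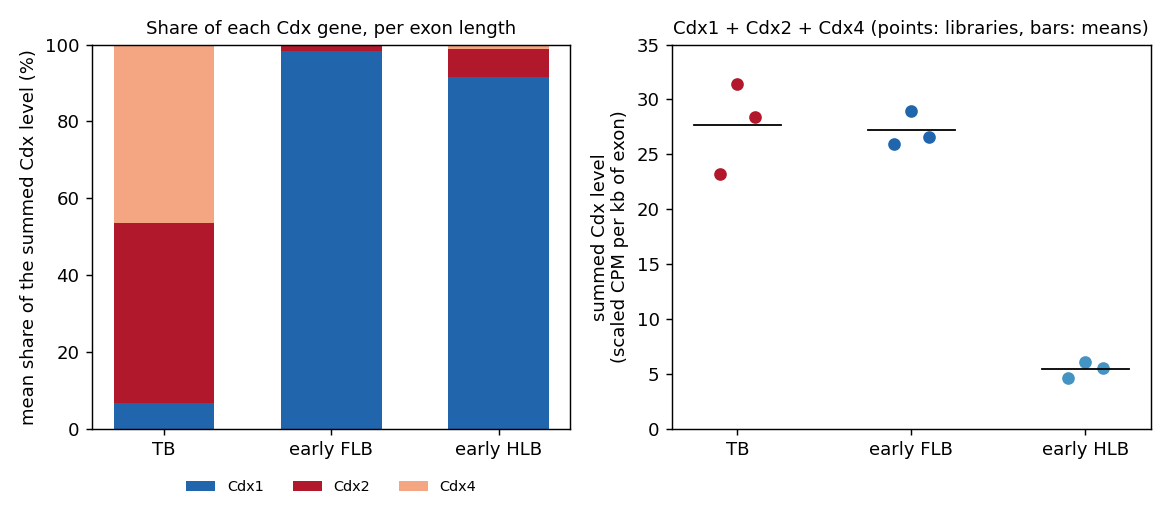
Left, mean share (%) of Cdx1, Cdx2 and Cdx4 in their summed level per kb of exon in TB, early FLBs and early HLBs (n = 3 each). Right, that sum in scaled CPM per kb for each library, with bars at the means; TB and early FLBs overlap, while the composition changes from 6.56% Cdx1 to 98.5% Cdx1.

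Nkx1-2, a homeobox gene of the progenitor zone at chr7:132596239-132599637 on the minus strand, was at 9.11, 11.4 and 12.6 CPM in TB. ES–HLB came next with 0.636, 0.563 and 0.716 CPM, and no Nkx1-2 read was found in Ca, so TB was at least 27.1-fold higher than Ca. All 3 ES–HLB libraries lay above every other library outside TB, the highest of which was an early HLB library at 0.472 CPM. Nkx1-2 shares 541 exon bases with Gm16764 on the opposite strand, and the strand setting of the counting is not given in the sources used here. Within TB, the level per kb of exon ran from T (55.5 CPM per kb) through Msgn1 (40.2), Tbx6 (26.2), Cdx2 (12.99), Cdx4 (12.8), Gdf11 (10.98) and Nkx1-2 (3.38) to Cdx1 (1.82) and Nr6a1 (1.80). These levels are approximate, since the exon lengths are those of GENCODE, whose ends of Gdf11 and Nkx1-2 differ from those of RefSeq.

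Gdf11 and Nr6a1, the genes of the trunk-to-tail switch, were found in every library. Gdf11 lies at chr10:128880524-128891718 and Nr6a1 at chr2:38723369-38926461, both on the minus strand. Gdf11 was at 43.8, 44.8 and 45.3 CPM in TB and at 40.8 and 48.2 CPM in E10.5 HLBs. These groups overlapped, and their difference of 0.01 ± 0.13 was not called (adjusted p = 0.973). From there the means descended in small steps through E10.5 FLBs (38.8 ± 2.36), early HLBs (35.2 ± 5.35), BA (29.7 ± 2.57), early FLBs (25.03 ± 1.95), ES–HLB (23.3 ± 3.84) and ES–FLB (19.2 ± 2.05) to Ca (16.2 ± 2.02). Each neighbouring pair in this order overlapped, apart from E10.5 HLBs and E10.5 FLBs. The whole span from TB to Ca was 2.75-fold (log2 difference 1.44 ± 0.11, adjusted p = 1.32e-12).

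Nr6a1 spanned a much wider range, led by the early limb buds. Early FLBs were at 147, 148 and 157 CPM, early HLBs at 37.5, 51.9 and 50.3 CPM and TB at 20.5, 18.3 and 19.8 CPM. These groups, and E10.5 HLBs after them (12.5 and 12.01 CPM), did not overlap each other, while ES–HLB reached into the range of E10.5 HLBs. The other groups lay between 5.38 and 12.2 CPM, with E10.5 FLBs lowest on average (7.05 ± 1.58). Nr6a1 overlaps the antisense gene Nr6a1os without a shared exon base. Read as a ratio, Nr6a1 CPM over Gdf11 CPM was 6.06 ± 0.688 in early FLBs, 1.36 ± 0.413 in early HLBs, 0.437 ± 0.0297 in TB, 0.278 ± 0.0407 in E10.5 HLBs and 0.183 ± 0.0509 in E10.5 FLBs. The ES–LBs were at 0.511 ± 0.0952 (ES–FLB) and 0.4995 ± 0.137 (ES–HLB), which overlapped. Ca was at 0.672 ± 0.114, above TB and overlapping the ES–LBs, and BA was at 0.265 ± 0.0435. These ratios serve only to compare groups, since Nr6a1 and Gdf11 differ in exon length. Per length of exon the ratio was 2.28 ± 0.258 in early FLBs and 0.511 ± 0.155 in early HLBs. On that scale, which uses GENCODE exon lengths and is approximate, Nr6a1 exceeded Gdf11 only in early FLBs.

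**Figure D3:**
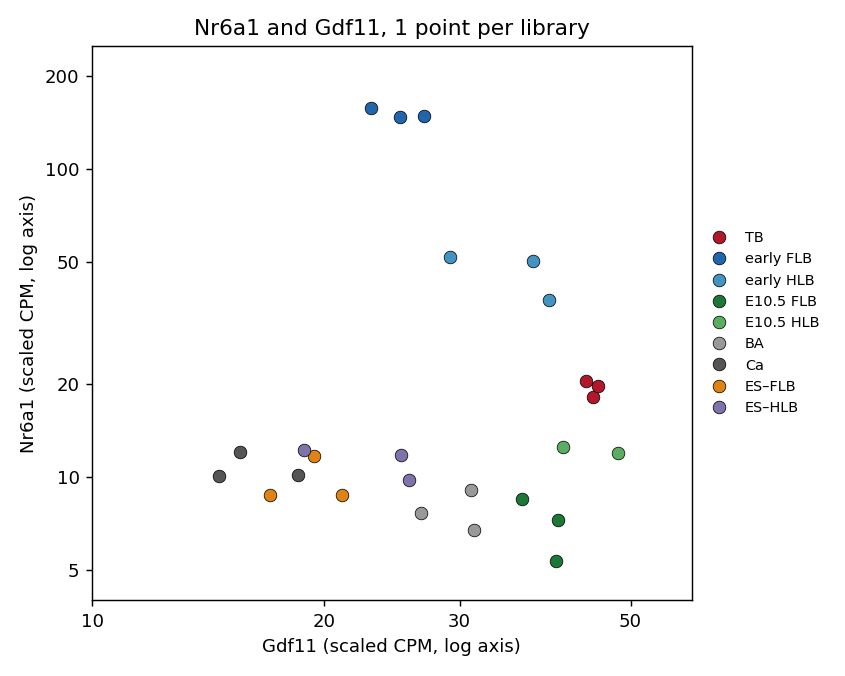
Nr6a1 against Gdf11 in scaled CPM on logarithmic axes, 1 point per library, coloured by group. The 3 early FLB libraries are at 147 to 157 CPM of Nr6a1 and 23.0 to 26.9 CPM of Gdf11, and the E10.5 FLB libraries at 5.38 to 8.52 and 36.1 to 40.3 CPM.

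TB was then compared with each other tissue, which addresses how far the tail-end programme is shared with limb bud, arch and heart. Against E10.5 FLBs 8 of the 9 genes were higher in TB and Gdf11 was not called (0.20 ± 0.11, adjusted p = 0.162), where 23.3% of all genes tested were higher. Against E10.5 HLBs 7 were higher, with 19.2% of all genes, and neither Gdf11 nor Cdx1 (0.74 ± 0.35, adjusted p = 0.0959) was called. All 9 were higher in TB than in BA, in Ca and in the mean of the ES–LBs, with 22.4%, 37.8% and 38.7% of all genes. Asked also for a 4-fold difference, 6 of 9 remained against either E10.5 limb bud (2.03% and 2.58% of all genes) and 7 against BA, Ca and the ES–LBs (1.86%, 3.08% and 3.54%). These counts are descriptions, because 5 of the 9 genes reached 1 CPM in enough libraries to be tested only through TB and so had to differ. The TB libraries serve in all of these comparisons.

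Genes that work beside the 9 were followed in 4 lists, in TB against E10.5 HLBs, where 39.1% of all genes were called and the median of all genes was -0.0038. Of 22 other caudal progenitor and primitive streak genes 15 were higher in TB and 1 was lower, with a median of 1.04. The largest differences were those of Sox2, the neural and progenitor factor (6.74 ± 0.22), the ligand Wnt3a (5.58 ± 0.25) and the ligand Fgf3 (4.22 ± 0.29). Since E10.5 HLBs held 1 read of Sox2, 1 of Fgf3 and none of Wnt3a, these fitted values depend on the pseudocount. As ratios, TB was 689 times E10.5 HLBs for Sox2 (95% counting interval 123.4 to 27223), 117 times for Fgf3 (20.9 to 4647) and at least 44.1-fold higher for Wnt3a. Fgf8, named after its value was seen, was the gene lower in TB (-1.92 ± 0.22). Of 18 presomitic mesoderm genes 17 were tested, 15 were higher and none lower, with a median of 3.22, led by the Notch ligand Dll3 (6.28 ± 0.42, 64.7 against 0.356 CPM), the secreted inhibitor Cer1 (5.94 ± 0.24, at least 56.4-fold) and the Notch ligand Dll1 (5.40 ± 0.21, 110 against 2.23 CPM). In both lists 5 genes passed the filter only through TB.

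The genes around Gdf11 were called in both directions. Of 18 genes for processing, receptors, transducers and inhibitors, 5 were higher in TB and 4 lower, with a median of -0.015. The 3 largest differences all belonged to extracellular inhibitors, namely the activin antagonist Fst (3.78 ± 0.21, 16.0 against 0.719 CPM) and the Gdf11 antagonists Wfikkn1 (1.82 ± 0.30) and Wfikkn2 (-1.68 ± 0.23), of which the last was lower in TB. Of 14 genes of the trunk-to-tail transition 6 were higher and 1 lower, with a median of 0.52, or 0.31 when genes at 0 in E10.5 HLBs are set at their floor, and 2 of these genes passed the filter only through TB. Its leaders were posterior Hox genes, Hoxb13 (6.83 ± 0.28, at least 106-fold), Hoxc13 (5.64 ± 0.26, 70.8-fold) and Hoxc12 (5.61 ± 0.27, with 1 read in E10.5 HLBs). Hoxb9 (2.62), Hoxd11 (0.81) and Hoxd12 (0.80) were higher as well. Hoxa13 (0.08), Hoxc10 (0.01), Hoxd10 (0.18) and Hoxd13 (0.37) were not called, and against E10.5 FLBs Hoxd13 was lower in TB (-0.70 ± 0.18). The gene lower than in E10.5 HLBs was the RNA-binding factor Lin28b (-1.04 ± 0.14). Lin28b and the Hox genes beyond the leaders were named after their values were seen. Lin28b was higher in TB in the other comparisons, by 0.60 against E10.5 FLBs, 0.48 against BA, 2.04 against Ca and 1.93 against the ES–LBs (adjusted p of 0.00367 or less).

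**Figure D4:**
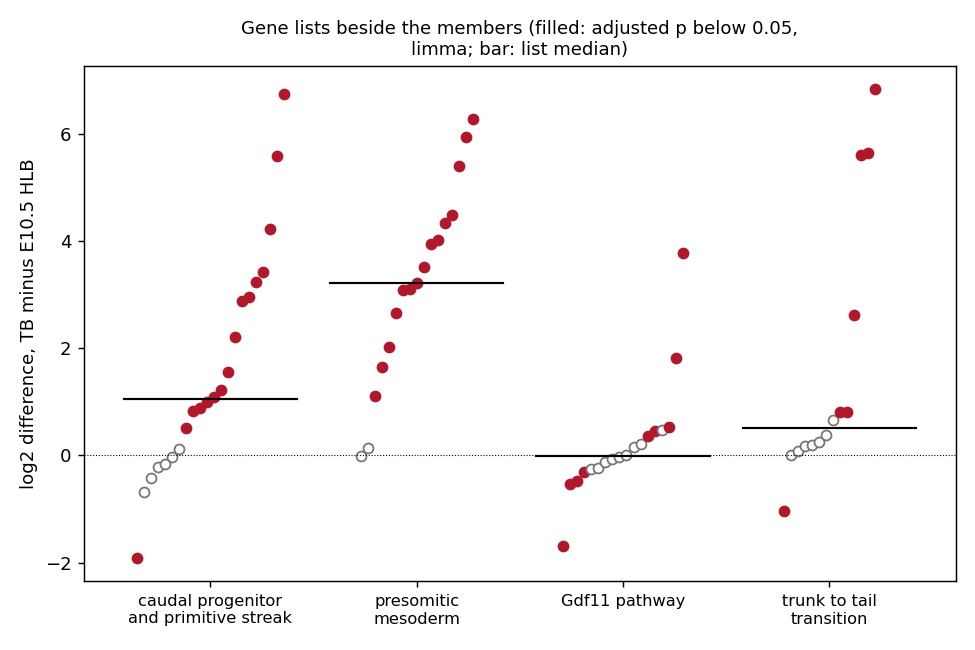
Fitted log2 differences of TB minus E10.5 HLBs for the tested genes of 4 lists, 1 point per gene sorted by value, filled where the adjusted p is below 0.05, with a bar at each list's median. Medians are 1.04, 3.22, -0.015 and 0.52 from left to right.

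Between early HLBs and early FLBs, where 18.9% of all genes were called, 3 of the 8 measurable genes differed. Cdx1 was 5.43-fold lower in HLBs (-2.38 ± 0.31, adjusted p = 1.23e-06) and Nr6a1 3.24-fold lower (-1.70 ± 0.14, adjusted p = 8.96e-11). Gdf11 was higher in HLBs (0.48 ± 0.11, adjusted p = 0.00289), 1.41-fold. All 3 libraries of each group lay on their own side for these genes, but they were called on the same libraries, so this adds no support. The share of all genes separated in this way was not counted. At E10.5, T was lower in HLBs than in FLBs (-1.74 ± 0.32, adjusted p = 0.00023), from 0.363 and 0.177 CPM, below the floor, against 1.32 to 3.64, and Nr6a1 was 1.74-fold higher (0.78 ± 0.16, adjusted p = 0.000565), so its order between limb types was opposite to that of the early buds. These were 2 of 5 measurable genes, with 21.3% of all genes called. Tbx6 was next (-0.76 ± 0.28, adjusted p = 0.0505) and was called without E10.5 HLB replicate 3 (0.00727) or E10.5 FLB replicate 1 (0.0385). Beside the T values, somite markers summed to 161 to 184 CPM in E10.5 FLBs and to 79.1 to 81.2 in E10.5 HLBs, and notochord markers to 15.6 to 16.5 and 11.8 to 17.8, with Foxa2 and Noto at 0 in both groups; their part in the T difference was not tested.

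From the early to the E10.5 buds, Cdx1 and Nr6a1 fell in both limb types and Gdf11 rose. In FLBs Cdx1 fell by 5.01 ± 0.31 on the log2 scale, 39.9-fold (adjusted p = 1.99e-14), and Nr6a1 by 4.35 ± 0.14, 21.4-fold (adjusted p = 2.41e-21). Gdf11 rose by 0.62 ± 0.11 (adjusted p = 2.48e-05) and T by 1.31 ± 0.29 (adjusted p = 0.000239). These were 4 of 6 measurable genes, in a comparison that called 59.3% of all genes. Msgn1 was called as well (-0.49, adjusted p = 0.0467), but its 12 reads in early FLBs lay below the floor of the shallower E10.5 libraries. Beside the T values, somite markers summed to 49.0 to 59.3 CPM in early FLBs against 161 to 184 in E10.5 FLBs, and notochord markers to 6.47 to 8.54 against 15.6 to 16.5, and their part in the difference was not tested. In HLBs Cdx1 fell by 2.06 ± 0.35, 5.08-fold (adjusted p = 3.77e-05), and Nr6a1 by 1.87 ± 0.16, 3.80-fold (adjusted p = 1.61e-10). Cdx2 also fell there, by 1.09 ± 0.31 (adjusted p = 0.00788), and Gdf11 rose by 0.34 ± 0.13 (adjusted p = 0.0456), which makes 4 of 5 measurable genes with 29.3% of all genes called. Cdx2 lay below the floor in E10.5 HLBs, at 0 and 0.353 CPM or 2 reads in all. The deeper early HLB libraries held 0.661 to 1.36 CPM, so the size of its fall was not measured. The calls of Cdx2 and Gdf11 in HLBs rested on single libraries. Without early HLB replicate 2 they were at adjusted p = 0.0566 and 0.258, Cdx2 lost its call without E10.5 HLB replicate 1 (adjusted p = 0.201), and Gdf11 lost its call without E10.5 HLB replicate 3 (adjusted p = 0.370).

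The fall was larger in FLBs, where by the stages that the study describes it also spanned a longer time. Tested as the change in HLBs minus that in FLBs, Cdx1 differed by 2.95 ± 0.47 (adjusted p = 3.78e-05), Nr6a1 by 2.48 ± 0.21 (adjusted p = 5.76e-10) and T by -1.68 ± 0.43 (adjusted p = 0.00526), where 21% of all genes were called. Of the 14 trunk-to-tail genes 7 rose from early to E10.5 FLBs and 3 fell, in a comparison that called 59.3% of all genes. All those named here were chosen after their values were seen. The largest rise was that of Hoxd12 (7.27 ± 0.17). The list also holds Hoxd10 and Hoxd11, which the study treats as distal limb markers, so its name does not describe these genes in limb buds. The RNA-binding factors Lin28a and Lin28b fell by 5.46 ± 0.23 and 2.33 ± 0.12, and Hoxb9 by 4.21 ± 0.16. In HLBs Lin28a and Lin28b fell by 1.93 ± 0.26 and 0.64 ± 0.14. The Gdf11 antagonists moved apart in FLBs. Wfikkn1 fell by 3.87 ± 0.27, from 18.1 to 0.789 CPM, and Wfikkn2 rose by 4.25 ± 0.21, from 0.155 to 11.9 CPM.

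**Figure D5:**
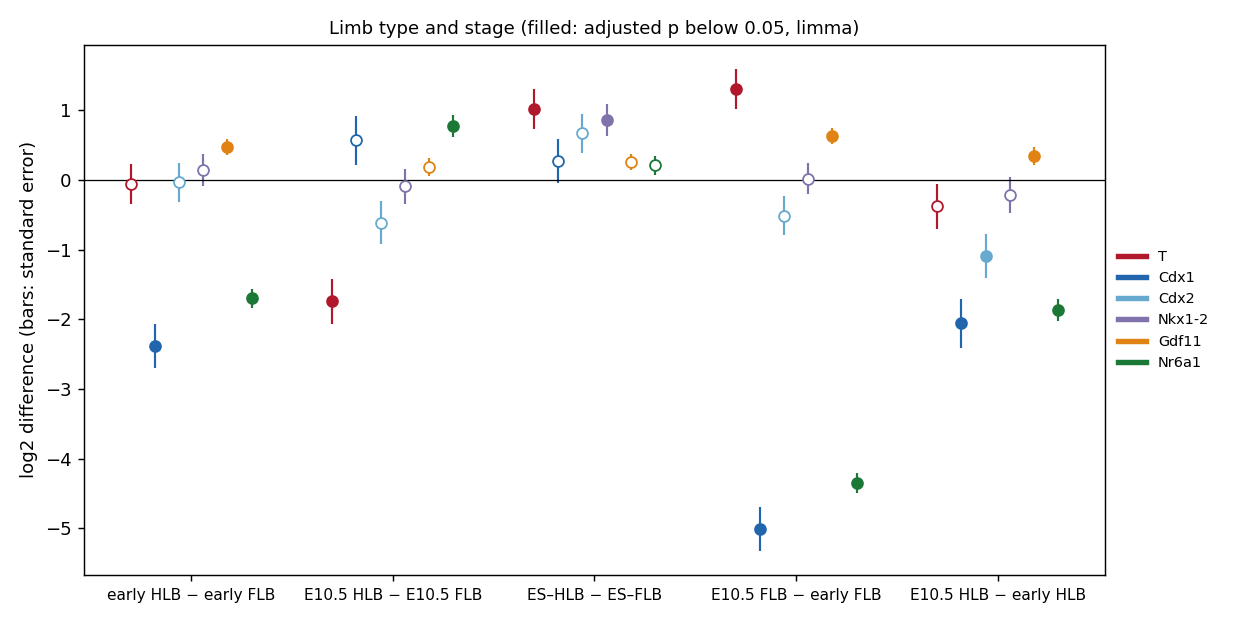
Fitted log2 differences with standard errors for 6 genes in 5 comparisons of limb type or stage; filled points have an adjusted p below 0.05. Nr6a1 is at -1.70 between early HLBs and FLBs and at 0.78 between E10.5 HLBs and FLBs, and Cdx1 and Nr6a1 are lowest (-5.01 and -4.35) from early to E10.5 FLBs.

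ES–HLB and ES–FLB differed in 2 of the 6 measurable genes, with 19.7% of all genes called. T was higher in ES–HLB (1.02 ± 0.29, adjusted p = 0.0104), at 0.636, 1.55 and 1.43 CPM against 0.486, 0.130 and 0.364 CPM. Nkx1-2 was higher as well (0.86 ± 0.23, adjusted p = 0.00569), at 0.563 to 0.716 CPM against 0.121 to 0.130. Neither pair of groups overlapped, which adds no support to calls made on the same libraries. The ES–FLB values were only 8 reads of T and 3 reads of Nkx1-2 in all. The call for T was lost without ES–FLB replicate 2 (adjusted p = 0.0741), without ES–HLB replicate 2 (0.0669) or without ES–HLB replicate 3 (0.0539). Nr6a1 differed between them by 0.21 ± 0.14 (adjusted p = 0.336), and the difference of ES–HLB and ES–FLB minus that of early HLBs and FLBs was 1.91 ± 0.20 (adjusted p = 1.55e-08), with 19.9% of all genes called. For Cdx1 that value was 2.65 ± 0.44 (adjusted p = 4.62e-05), but Cdx1 lay below the floor in both ES–LB groups, with 5 and 2 reads, so no limb type difference could be detected in culture and the value restates that of the early buds. T missed that call (1.08 ± 0.41, adjusted p = 0.0607) and passed it without early HLB replicate 1 (0.0148), ES–FLB replicate 1 (0.0497) or ES–HLB replicate 1 (0.0222). Between ES–HLB and ES–FLB, Cdx2 was called without ES–FLB replicate 3 (0.0249) or ES–HLB replicate 3 (0.0472), and Gdf11 without ES–HLB replicate 2 (0.0141).

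Genes of the lists were also compared between ES–HLB and ES–FLB, where 19.7% of all genes were called in either direction. Of the 22 caudal progenitor genes 11 were higher and none lower (median 0.37, against a median of 0.00015 over all genes), including the RA-degrading enzyme Cyp26a1 (2.47 ± 0.24) and Eomes (2.35 ± 0.26), a T-box factor of the streak, both named after their values were seen. The presomitic mesoderm genes were called in both directions, 6 higher and 4 lower of 17 tested, and the lower ones were Dll1 (-1.002 ± 0.19), Foxc2 (-0.88 ± 0.17), Foxc1 (-0.69 ± 0.17) and Snai1 (-0.41 ± 0.13). Markers of pluripotent cells (6 of 6 genes above the floor in both groups) summed to 66.8 to 97.4 CPM in ES–HLB and to 16.0 to 23.5 CPM in ES–FLB, somite markers to 67.7 to 76.8 and 34.5 to 40.7 CPM, and their part in these differences was not tested. Sox2, which pluripotent cells and caudal progenitors share, averaged 23.2 ± 2.90 CPM with the RA antagonist (ES–HLB) and 8.87 ± 1.98 with RA (ES–FLB).

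Set beside the early buds, ES–FLB was lower in Cdx1 (-6.37 ± 0.31, adjusted p = 9.4e-18), with 2 reads among 3 libraries and a counting interval of 156 to 4674 for the ratio of early FLBs to ES–FLB, and 15.5-fold lower in Nr6a1 (-3.90 ± 0.14, adjusted p = 1.73e-21). Gdf11 (-0.38 ± 0.11, adjusted p = 0.00385) and Cdx2 (-0.64 ± 0.28, adjusted p = 0.0373) were also lower, and both calls were lost on CPM as deposited (adjusted p = 0.257 and 0.102), a scale on which the median of all genes was 0.22. With these, 4 of 6 measurable genes were called, against 76.9% of all genes. Msgn1, not measurable at the depth of ES–FLB, was called too (-0.49, adjusted p = 0.0365). Cdx2 also lost its call when any 1 of 5 libraries was left out (adjusted p of 0.0569 to 0.152). ES–HLB was 37.9-fold lower than early HLBs in Cdx1 (-3.72 ± 0.31, adjusted p = 4.95e-12), 4.13-fold lower in Nr6a1 (-1.99 ± 0.14, adjusted p = 4.63e-14) and lower in Gdf11 (-0.59 ± 0.11, adjusted p = 3.21e-05), while T (0.74 ± 0.29, adjusted p = 0.0226) and Nkx1-2 (0.53 ± 0.23, adjusted p = 0.0355) were higher. These were 5 of 7 measurable genes, with 75.1% of all genes called. T lost this call without early HLB replicate 2 or 3 or ES–HLB replicate 2 or 3 (adjusted p of 0.0879 to 0.121), and Nkx1-2 without early HLB replicate 1 or 3 or ES–HLB replicate 1 or 3 (0.0626 to 0.173). Culture, sorting and depth all differ between these groups and cannot be told apart.

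Finally, the genes whose group means most resembled each of the 9 were sought by Pearson's r over 9 group means of log2(CPM + 0.5), among 12388 genes. All genes share the same libraries and depths, and for a TB gene r rests largely on 1 group. For Cdx1 and Nr6a1 it rests largely on the early limb buds, whose libraries stood apart in depth. T was most like Dll3 (r = 0.977), Hoxc12 and Hoxc13, and Tbx6 most like Hes5 (0.991), Fam181a and Blnk. Msgn1 was nearest to Msx3 (0.993), Fam181a and Olig2, Cdx4 to Foxb1 (0.997), Msx3 and Olig2, Cdx2 to Mgat5 (0.960), Msx3 and Foxb1, and Nkx1-2 to Hoxc12 (0.989), Cer1 and Olig2. The neighbours of Cdx1 and Nr6a1 were other genes highest in early FLBs, namely Elac2 (0.988), Nol8 and Rbm19 for Cdx1, and Prtg (0.984), Larp1 and Eprs for Nr6a1. Gdf11 was nearest to Zdhhc18 (0.968), 5730455P16Rik and Akap17b. Among the 9 genes themselves, Cdx1 and Nr6a1 had an r of 0.938 with each other, against 0.149 and 0.0255 with T.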

How the data were processed

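Reads of stranded, single-end mRNA libraries were, per the labels and the methods of the paper, mapped by the authors to mm10 with HISAT2 2.0.4, turned into estimated counts with Cuffdiff and tested with edgeR 3.16.2. Values were deposited as CPM, and every column adds up to 1000000. The step from estimated counts to CPM is not given in the sources used here, nor is the strand setting. Reads behind a value were inferred as CPM divided by the CPM of 1 read, the spacing of the lowest values of each library, with a value called whole within 0.05 of a read. Because no more than 93.1 to 93.6% of values of the early limb buds were whole, no test was run on inferred reads.

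Groups and replicate numbers came from the labels. CPM were scaled in Python 3.11.15 by trimmed means of M values without weights (30% of log ratios and 5% of intensities trimmed), and genes that reached 1 CPM in 3 libraries were fitted in 1 model of group means on log2(scaled CPM + 0.5) with limma 3.58.1 (trend and robust) in R 4.3.3, with 14 contrasts. The fit was also run on simulated libraries with changes set only in genes at 5 CPM or more, so that run does not cover lower levels. Exon lengths are of GENCODE and gene coordinates of RefSeq, both on GRCm38. The authors counted on RefSeq and UCSC annotation, so levels per kb of exon are approximate. The 9 genes, 4 lists, markers and tests were chosen with earlier results of these data known. Named beside the 9 were, for each list, the 3 called genes with the largest absolute difference in TB against E10.5 HLBs, and for each of the 9 the 3 genes with the highest r among genes whose highest group mean is at least 5 CPM. A 4-fold difference served as a second rule. Fold ratios are of mean scaled CPM. Alternatives were other pseudocounts (0.1 and 1), filters (none and 5 CPM), scalings, fits, leaving out each library and, chosen after seeing the data, leaving out the early limb buds. The replicate numbers were not taken as pairs: of 100 pairs of libraries with the same number, 4 had deviations that correlated above 0.1 (range -0.0883 to 0.126).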

Additional observations from a re-analysis of the deposited data

Results flagged for a closer look

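In 5 cases a difference between 2 groups differed from the same difference elsewhere, by limma's test of the difference itself. The limb type difference of ES–LBs minus that of early limb buds was 2.65 for Cdx1 and 1.91 for Nr6a1, both of them much lower in early HLBs than in early FLBs. In culture Cdx1 lay below the floor in both groups, so no difference could be detected there and its value restates that of the early buds. The change from early to E10.5 buds in HLBs minus that in FLBs was 2.95 for Cdx1, 2.48 for Nr6a1 and -1.68 for T. T lay below the floor in E10.5 HLBs. The early buds enter all 5, their labelled and described stages differ, and limb type and stage cannot be told apart in them.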

How the results depend on the processing

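Counts of called genes among the 9 stayed within 1.5 times of the reported count in 130 of 133 combinations of comparison and setting, and 920 of 940 single values kept their direction and call, leaving out single libraries aside. These totals include the TB comparisons, in which 5 of the 9 genes had to differ, so part of this agreement was fixed in advance. With single libraries left out, 641 of 686 values kept direction and call, 20 lost their call and 17 changed sign. On CPM as deposited the count for ES–FLB against early FLBs was 2, and Tbx6 turned to -0.0099 in the difference of limb type in culture minus that in the embryo. With the compared libraries alone, the counts were 0 for ES–HLB against ES–FLB, where T and Nkx1-2 no longer passed the filter, and 2 for E10.5 against early HLBs. CPM as deposited moved the median of all genes to 0.15 in TB against Ca, 0.13 in E10.5 against early FLBs, 0.22 in ES–FLB and 0.18 in ES–HLB against the early buds. It also moved the share of called genes that were higher from 49.2 to 66.2% (TB against E10.5 HLBs), 43.9 to 60.8% (early HLBs against FLBs), 50.8 to 28.5% (E10.5 HLBs against FLBs), 45.6 to 66.6% (FLBs by stage), 41.2 to 58.4% (HLBs by stage), 54.2 to 26.3% (their difference), 56.5 to 44.8% (culture minus embryo), 49.8 to 62.7% (ES–FLB) and 49.9 to 61.3% (ES–HLB). Cdx1 in TB against E10.5 HLBs was called with a pseudocount of 1 (adjusted p = 0.043) or with the compared libraries alone (0.0263), as was Gdf11 in TB against E10.5 FLBs in the latter (0.0274). Tbx6 in E10.5 HLBs against FLBs was called on CPM as deposited (0.0453), with a pseudocount of 0.1 (0.0185) and in limma without trend and robust (0.0452). Nkx1-2 in ES–HLB against early HLBs lost its call with the filter at 5 CPM (0.0543) and a pseudocount of 0.1 (0.0676). With the replicate block, Gdf11 in E10.5 against early HLBs was 0.30 (adjusted p = 0.0712), and no other call among the 9 genes changed.

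Leaving out 1 library gave counts of 2 to 4 for E10.5 against early HLBs, 3 to 4 for ES–HLB against early HLBs and 1 to 3 for ES–HLB against ES–FLB. Differences that were not called crossed 0, namely Gdf11 in TB against E10.5 HLBs (-0.11 to 0.13), T (-0.38 to 0.12), Cdx2 (-0.25 to 0.095) and Nkx1-2 (-0.039 to 0.29) in early HLBs against FLBs, Cdx2 in ES–HLB against early HLBs (-0.32 to 0.27), and Tbx6 in the differences of limb type (-0.063 to 0.15) and stage (-0.99 to 0.049). T, Tbx6, Msgn1, Cdx2, Cdx4 and Nkx1-2 had 73 to 1162 reads in each TB library and far fewer elsewhere, so differences among the other groups below the floor of 3 reads were not detectable at this depth. Tests of edgeR or DESeq2 on inferred reads, listed as alternatives, were not run.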
